A study of Mus musculus with 13 samples.

Results

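Embryonic stem cell (ESC) lines from which the histone demethylase genes Jmjd2a and Jmjd2c were deleted together were compared with untreated cultures of the same lines. The comparison consisted of the samples labelled OHT_2ac and Ctrl_2ac, 6 of the 12 samples of the series, on 7 of its 13 arrays. Both groups came from the 3 mouse ESC lines cl4, cl5 and cl6, of C57Bl/6 origin, homozygous for floxed Jmjd2a (f/f) and floxed Jmjd2c (f/f) and carrying Rosa26::CreERT2. The controls therefore had the floxed alleles of both genes and the Cre recombinase, which is expressed from the Rosa26 locus and becomes active in the presence of the tamoxifen metabolite OHT. The OHT_2ac cultures were given 500 nM OHT for 12 days and then grown for 6 more days before harvest, while the Ctrl_2ac cultures were grown without OHT. Lines that carry the recombinase without floxed alleles were not analysed here, so the deletion and the exposure to OHT and active Cre cannot be told apart. All cultures grew on gelatin in N2B27, a medium without serum, to which LIF, the MEK inhibitor PD0325901 and a GSK3 inhibitor had been added. The other 6 samples of the series were control and OHT cultures of 3 lines named 2abc (cl280.4, and the 2 lines cl324.9 and cl324.13), which carried floxed Jmjd2b in addition. They entered the estimate of the spread and the comparison of both genotypes. The 2 arrays of the OHT sample of cl4 correlated at 0.994 and were averaged into 1 sample.

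The Jmjd2 proteins, also named KDM4, remove methyl groups from lysine 9 and lysine 36 of histone H3. Trimethylation of lysine 9 is a mark of silent heterochromatin, and trimethylation of lysine 36 is laid down over transcribed gene bodies. Jmjd2a and Jmjd2c also hold Tudor domains that bind histone H3 trimethylated at lysine 4, a mark of active start sites that often lie in CpG-rich promoters. ESCs in medium with LIF and both inhibitors are in the naive state, with high Esrrb, Klf4 and Tfcp2l1 and little expression of lineage genes.

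Every level below is log2 of the background-subtracted spot intensity, relative to the 75th percentile of its array, so a level of 0 is the signal of that percentile. A change is the log2 level after OHT less that of the same line's control, averaged over the 3 lines and given with its standard error (SE). Where 3 values stand in brackets, they are the changes in cl4, cl5 and cl6. A gene was called if its limma p-value, adjusted over all 22965 tested features by the Benjamini-Hochberg method, was under 0.05. Nothing in the labels says whether the lines came from separate animals, so p-values describe these cultures only. The line was fitted as a block, so p-values rest on how the change after OHT varied among the lines, pooled over both genotypes. The small number of lines limits the precision. On the 7 arrays 52.9 to 63.9% of probes were well above background and 0 were saturated. All 8 ESC markers looked at (Pou5f1, Sox2, Nanog, Esrrb, Zfp42, Klf4, Tfcp2l1 and Dppa5a) were well above background on every array of both groups. Their summed signal, in units of the 75th percentile, was 627 to 733 in the controls and 596 to 680 in the OHT samples. Among the markers of other cell types, fibroblast genes summed to 33.6 to 36.5 in the controls and 51.0 to 66.5 after OHT, with Dcn, Postn and Fap above background on no array. None of the neural markers was below background on all arrays. They summed to 50.8 to 56.3 and 71.6 to 87.9, endoderm genes to 406 to 417 and 282 to 334, trophectoderm genes to 34.2 to 38.3 and 31.8 to 36.2, and blood and endothelial genes to 21.0 to 23.7 and 18.5 to 22.1. In these bulk samples, fewer cells of a type and less RNA per cell cannot be told apart. The part of other cell types in the results on neural, endoderm, matrix and fibroblast genes was not tested.

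The targeted genes were examined first. Kdm4c, the gene of Jmjd2c, had levels of 2.30, 2.35 and 2.33 in the control samples of cl4, cl5 and cl6 and of -0.49, -1.31 and 0.07 in the OHT samples. It fell by 2.90 on the log2 scale (SE 0.25, limma adjusted p = 0.0049), and the signal left was 13.4% of the control. Kdm4a, the gene of Jmjd2a, had levels of 2.91, 2.92 and 2.98 in the control samples of cl4, cl5 and cl6 and of 2.17, 2.25 and 2.16 in the OHT samples. It fell less far, by 0.74 on the log2 scale (SE 0.10, limma adjusted p = 0.0116), to 59.8% of the control. A second, dim Kdm4a probe, above background in 3 controls and on 0 of 4 OHT arrays, had a change of -1.07 (SE 0.30, limma adjusted p = 0.0721) and was not called. In both genes all 3 OHT samples lay below all 3 controls, but the Kdm4a call was lost without cl4 and without cl5, with adjusted p of up to 0.0771. Kdm4b, which is not floxed in these lines, had levels of 2.31, 2.33 and 2.38 in the control samples of cl4, cl5 and cl6 and of 2.37, 2.29 and 2.73 in the OHT samples, and the groups overlapped (change 0.12 (SE 0.19), limma adjusted p = 0.736). The probe of Kdm4d, a family member best known from the testis, was above background on 0 of the 7 arrays. The position of these probes in relation to the floxed exons was not examined, so the signal left is not a measure of intact transcript.

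**Figure D1:**
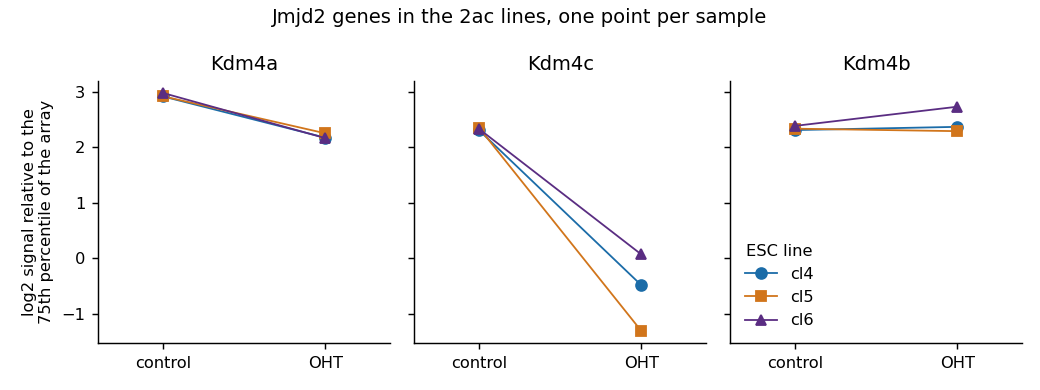
Level of Kdm4a, Kdm4c and Kdm4b (log2 scale, 0 being the array's 75th percentile of signal, vertical axis) in the control and the OHT sample of each 2ac line, one point per sample, with a line joining the samples of one ESC line. Kdm4c falls from about 2.3 in every control to -1.31 to 0.07, Kdm4a from about 2.9 to 2.16 to 2.25, and Kdm4b stays between 2.29 and 2.73.

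The response of the 2ac lines was broad rather than large. Of 22965 tested features 2813 were called (12.2%), 1319 higher (5.74%) and 1494 lower (6.51%), and all 2813 had one sign in the 3 lines. With so few lines, a call in this fit needs similar changes in each of them. The shared sign therefore follows from the calling and is no separate evidence that the lines agree. The median size of a called change was 0.79 on the log2 scale, or 1.73-fold, and the smallest was 0.30. Of the called features 821 changed by under 1.5-fold, 960 by 1.5 to 2-fold, 825 by 2 to 4-fold and 207 by 4-fold or more, of which 86 were higher and 121 lower. Another 480 features moved by 2-fold or more without being called. The median of all changes was 0.02, and the middle 50% of features, between the lower and upper quartile, lay between -0.17 and 0.21. The number called depended on which lines were fitted. It was 348 without cl4, 167 without cl5 and 1720 without cl6, of which 344, 167 and 1331 were among the 2813. It was 1576 and 1553 without the 2abc lines cl324.9 and cl324.13, which share the estimate of spread. For each gene group below, the calls kept in the fits without cl4, without cl5 and without cl6 are given in that order.

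The changes differed between the lines, which lay on different slides: cl4 on slide 1, with 1 of its OHT arrays on slide 2, cl5 on slide 2 and cl6 on slide 3. Line and slide therefore cannot be told apart here. The change in cl4 may also include a slide difference, since its control lay on slide 1 only. Its OHT array on slide 2 shared that slide with the arrays of cl5. Across features, the changes of cl4 and cl5 correlated at 0.75 (0.527 for cl4 with cl6 and 0.539 for cl5 with cl6), a description over genes, which are not independent, and over lines measured on the same array design. In cl6 1041 features (4.53%) moved by at least 2-fold differently from both other lines, against 244 (1.06%) in cl4 and 405 (1.76%) in cl5. Of these 104 lay on the X chromosome in cl6 and 11 each in cl4 and cl5, and 61.7% in cl6, 88.1% in cl4 and 89.4% in cl5 belonged to the class of genes with the lowest control level. The genes that stood furthest apart are named here as values. Hoxd11, a posterior Hox gene, had control levels of -0.01, -1.72 and -4.59 in cl4, cl5 and cl6 and was above background on 0 of 4 OHT arrays, so only a bound can be given over the 3 lines (at least 5.14-fold lower, limma adjusted p = 0.201). Dynlt1a, a dynein light chain gene, changed by -3.84, -5.06 and 0.19, Trim67 by -2.45, -2.53 and 1.32 and Cfap57, a cilia gene, by -0.04, -0.51 and 3.20. In cl5 the zinc-finger gene Zfp952 (0.29, -3.80 and 0.04) and the transcription factor gene Rfx7 (0.56, -3.18 and 0.45) were high in that line's control only, and Klhl30 (0.13, 3.67 and 0.19) and Fam240a (-0.44, 2.92 and -0.93) in its OHT sample only. In cl4 Acer2, an alkaline ceramidase gene (-3.44, -0.27 and -0.59), Flt4, the VEGF receptor of lymphatic endothelium (-4.21, -1.41 and -0.03), and Lypd3 (-2.97, -0.34 and -0.37) had been high in the control of that line only, whereas Zik1 (-3.29, -0.23 and 0.03) was low in its OHT sample. After OHT, Dynlt1a, Trim67 and Flt4 were above background on 1 of 4 arrays, so the size of their changes is uncertain. In these 12 genes 1 line differs from the others, and 0 of them were called by limma, with adjusted p from 0.154 to 0.703.

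Calls were unevenly spread over expression level. The tested features were put in 3 classes of 7655 by their mean level in the controls. In the lowest class 455 were called higher and 298 lower, in the middle class 569 and 683, and in the highest class 295 and 513. Called changes of 2-fold or more made up 5.77% of the lowest and of the middle class and 1.93% of the highest. In the lowest class the median change was 0.20 and 0.24 in cl4 and cl5 and -0.20 in cl6, and in the highest class -0.03, 0.01 and -0.04, so the lines differed most among dim probes. Among dim genes, St8sia3, a sialyltransferase gene of the nervous system, had levels of -6.57 to -5.97 in the 3 controls and, in the OHT samples, -1.21 in cl4 and -1.27 in cl6, with cl5 slightly above both. The rise was at least 10.3-fold (limma adjusted p = 0.000429), a bound set against the lowest signal well above background, because St8sia3 was not above background in any control. Vrtn, a gene known for setting the number of vertebrae in pigs, rose (2.69, SE 0.10, with 2.85, 2.45 and 2.76 in cl4, cl5 and cl6), as did Aadac, an arylacetamide deacetylase gene of liver and gut (2.22, 1.98 and 2.24), and Spry4, a feedback inhibitor of ERK signalling (at least 2.29-fold). On the other side, Mrgprd, an itch and pain receptor gene of sensory neurons, was above background in all 3 controls and in 0 of 4 OHT arrays, and fell at least 5.13-fold, and Mypn, a muscle sarcomere gene, fell at least 2.03-fold. Vil1, the microvillus protein villin, fell (-1.79, -1.36 and -1.39), and so did the cation exchanger gene Slc24a1, by at least 1.33-fold.

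In the middle class Perp, a desmosome and p53 target gene (2.40, 2.10 and 2.30), Lpar6, a receptor for lysophosphatidic acid (2.05, 2.24 and 2.03), Anxa8, an annexin (2.03, 2.15 and 2.63), and Olfr1466, an odorant receptor gene (2.29, 2.56 and 1.95), rose in all 3 lines. Copz2, a coatomer subunit (-2.46, -2.67 and -2.91), Ptgds, a prostaglandin D synthase (-1.84, -1.49 and -1.84), Sycp3, a component of the meiotic synaptonemal complex (-1.19, -1.29 and -1.14), and Pld2, a phospholipase D (-1.36, -1.51 and -1.71), fell. Among strongly expressed genes, Kit, the receptor of stem cell factor, had levels of 4.39, 4.12 and 4.40 in the control samples of cl4, cl5 and cl6 and of 2.83, 2.79 and 3.02 in the OHT samples and fell by 1.43 on the log2 scale (SE 0.08, limma adjusted p = 0.0034). All OHT samples were below all controls. The zinc-finger gene Zfp229 (-1.77, -1.96 and -1.77), the secreted phospholipase gene Pla2g1b (-1.67, -1.83 and -1.48) and Grtp1 (-1.02, -1.10 and -1.21) also fell. Gm10845 (2.21, 2.64 and 2.07, with other probes at 1.41 and 1.20), the zinc-finger gene Zfp365 (1.34, 1.41 and 1.44), Arxes2 on the X chromosome (1.12, 1.14 and 1.38) and the LIM-domain gene Crip2 (1.05, 0.99 and 1.23) rose. All 24 genes named by level class were called in every alternative that tested them, which were 17 to 20 for each gene. They had been chosen for the smallest p in the main fit on the same arrays, so this says nothing about the other calls. Of the features off in every control and on in every OHT array there were 18, of which 15 were called, and of the reverse 44, of which 27 were called. Such features had to differ to be counted.

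**Figure D2:**
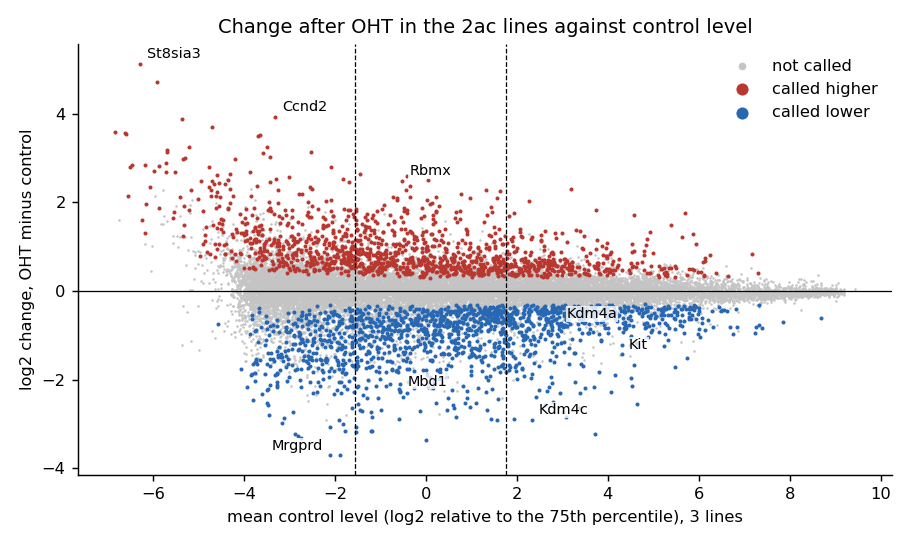
Log2 change after OHT (mean of 3 lines, vertical axis) of each of the 22965 tested features against its mean level in the 3 controls (log2 relative to the 75th percentile, horizontal axis). Red and blue points are the 1319 called higher and the 1494 called lower, grey points were not called, and dashed lines part the 3 level classes of 7655. Changes of 2-fold or more thin out towards the right, where 1.93% of features have one and are called.

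Because Jmjd2a and Jmjd2c can bind methylated histone H3 at CpG-rich start sites, the calls were set against promoter CpG content. The 250 bases before the most upstream RefSeq start of a gene (assembly GRCm38.p6) were searched for the letters CG, which read the same on both strands. Of 13864 protein-coding genes considered, 11390 (82.2%) had such a sequence, as had 81.8% of those called. The promoters shown are those of the gene with the smallest p called higher and called lower in the class with 0 to 2 CG, in that with 10 to 14 and in that with 25 or more, with CG in capitals.
Lpar6, chr14:73237641-73237890, plus strand: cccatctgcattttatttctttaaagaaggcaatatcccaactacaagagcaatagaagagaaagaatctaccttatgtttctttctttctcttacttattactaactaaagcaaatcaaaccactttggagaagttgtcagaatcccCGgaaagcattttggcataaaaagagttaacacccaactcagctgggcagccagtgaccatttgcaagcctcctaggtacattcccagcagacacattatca
Mrgprd, chr7:145314585-145314834, plus strand: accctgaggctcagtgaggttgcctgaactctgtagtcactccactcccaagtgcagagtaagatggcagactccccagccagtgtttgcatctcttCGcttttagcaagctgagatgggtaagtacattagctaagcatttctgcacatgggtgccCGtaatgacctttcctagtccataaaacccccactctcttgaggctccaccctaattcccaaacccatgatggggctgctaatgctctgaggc
Nkx2-9, chr12:56613285-56613534, minus strand: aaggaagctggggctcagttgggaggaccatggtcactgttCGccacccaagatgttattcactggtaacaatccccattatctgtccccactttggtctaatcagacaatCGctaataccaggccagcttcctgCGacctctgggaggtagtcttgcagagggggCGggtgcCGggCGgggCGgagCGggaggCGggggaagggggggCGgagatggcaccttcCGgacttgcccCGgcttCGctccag
Sycp3, chr10:88459337-88459586, plus strand: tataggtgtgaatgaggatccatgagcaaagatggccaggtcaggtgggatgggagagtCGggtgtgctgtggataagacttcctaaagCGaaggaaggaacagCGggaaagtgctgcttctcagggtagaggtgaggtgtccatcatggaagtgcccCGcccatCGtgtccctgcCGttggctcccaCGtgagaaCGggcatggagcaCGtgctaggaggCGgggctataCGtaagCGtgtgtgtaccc
Crip2, chr12:113139986-113140235, plus strand: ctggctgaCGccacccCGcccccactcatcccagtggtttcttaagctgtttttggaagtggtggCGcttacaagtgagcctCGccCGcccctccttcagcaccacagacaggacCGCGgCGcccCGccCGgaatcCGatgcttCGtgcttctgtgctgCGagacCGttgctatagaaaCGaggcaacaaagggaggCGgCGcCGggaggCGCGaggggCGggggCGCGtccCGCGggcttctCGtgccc
Nup210, chr6:91116827-91117076, minus strand: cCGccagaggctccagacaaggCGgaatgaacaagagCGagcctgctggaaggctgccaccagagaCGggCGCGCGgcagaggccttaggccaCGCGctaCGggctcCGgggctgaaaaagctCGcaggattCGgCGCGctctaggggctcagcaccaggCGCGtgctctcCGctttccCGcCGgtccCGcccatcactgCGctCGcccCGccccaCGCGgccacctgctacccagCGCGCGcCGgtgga
Their CG counts were 1 in Lpar6, 2 in Mrgprd, 13 in Nkx2-9, 12 in Sycp3, 26 in Crip2 and 30 in Nup210. Nkx2-9, a homeobox gene of the ventral neural tube, rose (2.46, SE 0.14, with 2.33, 2.54 and 2.52 in cl4, cl5 and cl6, limma adjusted p = 0.0034), and Nup210, a nuclear pore membrane protein, fell (-1.18, SE 0.10, with -1.23, -1.24 and -1.07 in cl4, cl5 and cl6, limma adjusted p = 0.0049, and 0.0501 without cl5). A second Nup210 probe, above background on all arrays, had a change of -0.34 (limma adjusted p = 0.341) and was not called.

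The share of genes called at 2-fold or more was lower in the CpG-rich classes. It went from 10.2% of 1082 genes with 0 to 2 CG and 8.37% of 1171 with 3 to 5, through 7.08% of 1440 with 6 to 9 and 5.58% of 2026 with 10 to 14, to 3.85% of 2076 with 15 to 19, 2.98% of 1544 with 20 to 24 and 3.56% of 2051 with 25 or more. The share called at any size ranged between 12.7 and 17.5%. Genes called lower outnumbered those called higher most in the class with 0 to 2 CG (10.1% against 4.81%), and those called higher were most frequent with 6 to 9 CG (9.44%, against 8.06% lower). Promoter class and level were linked, since the median control level was -1.80 in the class with 0 to 2 CG and 1.54 in that with 25 or more. Within the lowest level class of these genes, calls at 2-fold or more made up 9.34% with 0 to 9 CG, 13.3% with 10 to 14 and 8.18% with 15 or more. Within the middle class they made up 10.3, 4.36 and 3.27%, and within the highest 3.51, 1.49 and 1.19%. These shares are descriptions and were not tested.

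**Figure D3:**
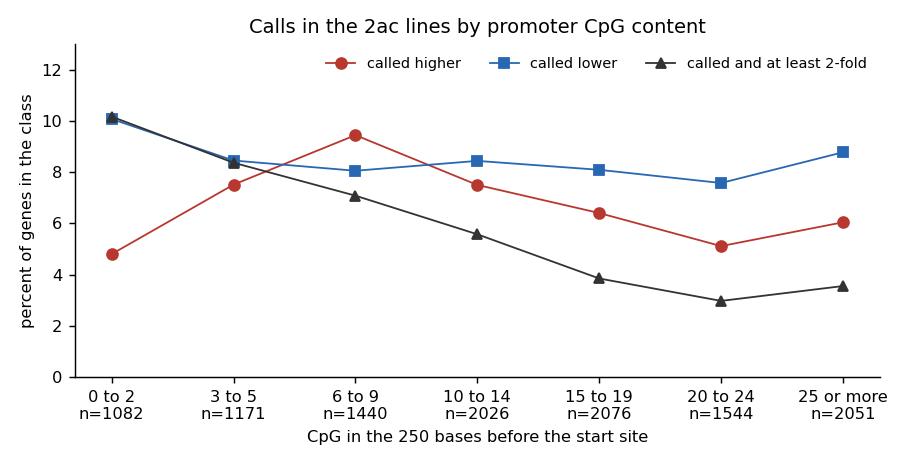
Percent of protein-coding genes called higher (red), called lower (blue) and called at 2-fold or more (black) after OHT in the 2ac lines (vertical axis), by the number of CG in the 250 bases before the start site (horizontal axis, with the number of genes in each class). The black line starts at 10.2%, has its lowest point at 2.98% in the class with 20 to 24 CG and ends at 3.56%, while the red line peaks at 9.44% in the class with 6 to 9 CG.

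Among all tested named genes 6.76% were called higher and 8.47% lower. On chromosome 3, 82 of 664 named genes were called higher (12.3%) and 24 lower (3.61%). The chromosome was divided into 7 windows of about 100 genes along its length, and these 7 windows were all among the 20 highest of 148 windows over the genome. On chromosome 3 Aadac and Cd2, a T-cell surface antigen gene (1.85, 2.10 and 1.52), rose, while the tight-junction gene Cgn (-1.10, -1.32 and -1.32) and BC021767 (-1.06, -1.20 and -1.13) fell against the direction of the chromosome. The 535 X-linked genes had a median change of 0.03 and 0.07 in cl4 and cl5 and 0.72 in cl6. Relative to the mean of the controls, their median level was 0.86 in the OHT sample of cl6, 0.14 in its control and -0.09 to -0.01 in the samples of the other lines. The chromosome held 63 genes called higher (11.8%) and 13 lower (2.43%). The 4 X-linked genes with the smallest p rose in each line: Rbmx, an RNA-binding protein gene (2.35, 2.80 and 2.33), Il2rg, the common cytokine receptor chain (1.90, 1.96 and 1.56), Sh3bgrl (2.09, 2.06 and 2.14) and Arxes2. The Y-linked gene Ddx3y was at a level of 1.86 and 1.75 in the controls of cl4 and cl5 and at -7.15 in that of cl6. In the OHT samples of cl4, cl5 and cl6 Ddx3y was at 1.45, 1.24 and -7.20, so its level was lowest in both cultures of cl6. A probe of the X-linked Xist, at -6.73, -6.22 and -7.19 in the controls, was at -4.64 in the OHT sample of cl6. It was well above background on 1 of the 7 arrays. A second Xist probe, at -4.93 in the OHT sample of cl6, was above background on 0 of them. With genes of chromosomes 3 and X left out of the fit, 2690 of 21519 features were called, 1198 higher and 1492 lower.

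Chromosome 4, which carries both deleted genes, had 56 genes called higher (5.84%) and 123 lower (12.8%) of 959, and medians of -0.07, -0.02 and -0.07 in cl4, cl5 and cl6. Along 10 windows of about 100 genes, counted from the start, the ninth had a median of -0.25, -0.15 and -0.39 in the 3 lines, with 26 genes called lower and 1 higher, and it was the lowest of the 148 windows. The seventh (-0.20, -0.13 and -0.19) and the sixth (-0.17, -0.11 and -0.10) were the next lowest. Kdm4c lay in the third window (median -0.03 over the lines) and Kdm4a in the fifth (-0.07, with 17 lower and 0 higher by limma). Of this chromosome, Tmem125 (-2.01, -2.20 and -1.76) and Padi6, an oocyte gene of the peptidylarginine deiminase family (-2.88, -2.86 and -2.39), fell, and Cfap74, a cilia gene, rose (1.82, 2.01 and 1.33).

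The neighbours of the deleted genes were read one by one. Next to Kdm4a, Atp6v0b, a subunit of the vacuolar proton pump, fell (-0.36, SE 0.08, with -0.43, -0.40 and -0.25 in cl4, cl5 and cl6, limma adjusted p = 0.0438), a call that was lost on leaving out any 1 of the 6 lines, 2abc lines included. The other neighbours described here were not called, from Ptprf, a receptor tyrosine phosphatase gene (-0.49 (SE 0.13), limma adjusted p = 0.0618), to Artn, a ligand of the GDNF family (0.62 (SE 0.24), limma adjusted p = 0.156), with St3gal3, Med8, Elovl1, Cdc20, Dph2 and Ipo13 between -0.11 and 0.23. Next to Kdm4c, 2 gene models between Tle1 and Kdm4c fell: Gm38423 (-2.69, SE 0.61, with -3.76, -3.19 and -1.11 in cl4, cl5 and cl6, limma adjusted p = 0.0434) and Gm11757 (-2.85, SE 0.61, with -3.63, -3.34 and -1.58 in cl4, cl5 and cl6, limma adjusted p = 0.037). Their control levels in cl6, -1.17 and -2.61, were below those in cl4, 1.51 and -0.25, and both calls were lost without cl4, without cl5 and without the 2abc line cl324.9, and that of Gm38423 also without cl324.13. The remaining neighbours, Tle1, Gm11240, Megf9, Dmac1, Lurap1l, Mpdz, Gm5860 and Nfib, were between -0.37 and 0.50 and not called.

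**Figure D4:**
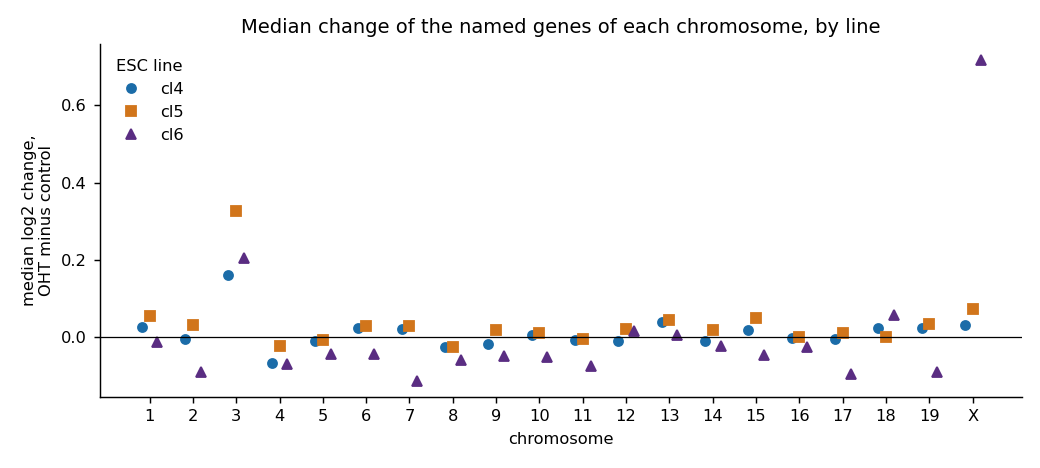
Median log2 change after OHT (vertical axis) of the tested named genes of chromosomes 1 to 19 and X (horizontal axis), with one point for each 2ac line. Chromosome 3 is raised in all 3 lines, between 0.16 and 0.33, and X is raised to 0.72 in cl6 alone.

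The gene groups below are read beside the 15.2% of all 14659 tested named genes that were called. Of 20 other tested demethylases of the JmjC and LSD1 types 0 rose and 3 fell (0, 0 and 0 kept, median -0.07). They were Kdm2b, a CpG-island-binding H3K36 demethylase (-0.59, -0.62 and -0.42), Kdm6b, an H3K27 demethylase (-0.33, -0.46 and -0.64), and Kdm1a, the LSD1 gene (-0.48, -0.36 and -0.21). Of 19 genes of H3K9 methylation and heterochromatin 1 rose and 1 fell (0, 0 and 1 kept). Suv39h1, an H3K9 methyltransferase on the X chromosome, rose in each line (0.77, 1.04 and 0.64), and Morc3 fell (-0.32, -0.27 and -0.33). Of 16 genes of H3K36 methylation and its readers 1 was called (0, 0 and 0 kept): Zmynd11, a reader of H3K36 methylation, rose (0.54, 0.80 and 0.96, with a second probe at 0.51, limma adjusted p = 0.279), and the lowest value was that of Phf1 (-0.41 (SE 0.13), not called). Of 16 genes of H3K4 methylation and CpG-island binding 2 rose and 3 fell (1, 0 and 2 kept). Setd1b, an H3K4 methyltransferase, had levels of 0.90, 0.95 and 1.08 in the control samples of cl4, cl5 and cl6 and of 1.79, 1.86 and 2.25 in the OHT samples, and rose by 0.99 (SE 0.10, limma adjusted p = 0.0062). The groups did not overlap. The complex subunit Ash2l fell (-0.48, -0.50 and -0.62), the coactivator gene Ncoa6 fell (-0.49, -0.44 and -0.47) and Paxip1 rose (0.46, 0.55 and 0.31). The Paxip1 groups overlapped, and its call was made in 8 of 19 alternatives, with limma adjusted p of up to 0.213 without the block.

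Of 18 DNA methylation and Tet genes 2 rose and 3 fell (2, 1 and 3 kept, median 0.04). Mbd1, a protein that binds methylated CpG, showed the largest change of this group, with levels of -0.62, -0.58 and -0.50 in the control samples of cl4, cl5 and cl6 and of -2.53, -3.43 and -2.51 in the OHT samples. It fell to 20.9% of control (SE 0.19 on the log2 scale, limma adjusted p = 0.005), was called in each of the 20 alternatives, and a second probe, above background on 1 of 4 OHT arrays, changed by -2.03. Hells, a chromatin remodeller (-0.44, -0.54 and -0.49), and Uhrf1, which recruits the maintenance methyltransferase (-0.42, -0.46 and -0.49), fell together, and the de novo methyltransferase gene Dnmt3b rose (0.43, 0.69 and 0.92). Of 28 Polycomb genes 2 rose and 1 fell (0, 0 and 1 kept, median -0.15). Bmi1 (0.49, 0.54 and 0.74) and Phc2 (0.79, 1.09 and 0.90) rose, and Pcgf5 (-0.70, -0.72 and -0.54) fell. Of 31 imprinted genes 5 rose and 0 fell (1, 1 and 2 kept), with a group median of 0.28 beside 0.02 for all features. The paternally expressed gene Mest rose (1.18 (SE 0.12), limma adjusted p = 0.0067), and lesser rises were those of Magel2 (0.88, 0.61 and 0.45), Ndn (0.63, 0.52 and 1.33) and Cdkn1c, a CDK inhibitor gene (0.81, 0.66 and 2.01). Of 20 tested Hox genes 0 were called by limma (8 at an unadjusted p under 0.05, and 3 with a trended, robust prior), with a median of 0.01, 0.05 and -0.56 in cl4, cl5 and cl6.

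Of 15 genes of the LIF and STAT3 pathway, which sustains ESC self-renewal, 2 rose and 3 fell (1, 0 and 2 kept). Socs2, a feedback inhibitor of cytokine signalling, had levels of 1.76, 1.64 and 1.96 in the control samples of cl4, cl5 and cl6 and of 2.64, 2.69 and 2.77 in the OHT samples, and rose (0.91 (SE 0.09), limma adjusted p = 0.0065). The kinase genes Pim3 (-0.77, -1.04 and -0.59) and Jak2 (-0.75, -0.38 and -0.51) and the STAT3 target Bcl3 (-0.95, -1.39 and -0.80) fell. Of 24 genes of the Nodal, activin and BMP pathway 2 rose and 1 fell (1, 1 and 2 kept). Bmp4, a ligand that patterns mesoderm and sustains ESCs, had levels of -1.59, -1.25 and -1.52 in the control samples of cl4, cl5 and cl6 and of 1.59, 0.91 and 1.06 in the OHT samples. It rose 6.21-fold (SE 0.19 on the log2 scale, limma adjusted p = 0.0041) and its groups lay apart. Id1, a BMP target, rose (1.28, 1.04 and 0.36), and Tdgf1, the Nodal coreceptor, fell (-0.33, -0.51 and -0.38). Of 13 tested primitive streak and mesoderm genes 4 rose and 0 fell (1, 1 and 3 kept), with Evx1 (2.34, 2.28 and 2.52), Twist1 (1.01, 1.68 and 0.58) and T, the brachyury gene (1.81, 1.08 and 1.28), beside Bmp4. Evx1, Twist1 and T were above background in 2 of 3 controls, and the T call was made in 9 of 18 alternatives. Of 14 trophectoderm genes 1 rose and 1 fell (0, 1 and 2 kept). Cdx2, a trophectoderm regulator above background in 1 of 3 controls and in all OHT arrays, rose (by 2.11 (SE 0.23) over the 3 lines), and the keratin gene Krt7 fell (-1.42, -1.48 and -2.39). Of 11 Myc and Max network genes 3 rose (1, 0 and 0 kept), namely Myc (by 1.07 (SE 0.19) over the 3 lines), Mycn (0.50, 0.80 and 1.19) and Mxd4, a Max partner that opposes Myc (0.40, 1.14 and 1.07).

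The lists already known from earlier results to shift are given by count. Among ERK feedback and immediate early genes 9 of 18 rose and 0 fell (3, 1 and 6 kept), with Phlda1 (1.35, 1.19 and 1.20), Jun (1.02, 1.22 and 1.58) and Dusp4 (0.80, 1.18 and 0.80) beside Spry4. Of 20 formative and primed epiblast genes 7 rose and 1 fell (1, 1 and 4 kept), with Wnt8a, a Wnt ligand (at least 10.1-fold), Epha4 (1.87, 1.58 and 1.39) and Sall2 (0.78, 0.95 and 0.65). Of 18 neural genes 5 rose and 0 fell (1, 0 and 5 kept), led by Pax6 (2.09, 2.89 and 2.49), Tubb3 (0.80, 0.73 and 0.91), Neurod1 (3.32, 3.05 and 2.67) and Map2 (1.82, 2.11 and 2.48). Pax6 and Map2 were above background in 1 of 3 controls, so the size of their rise is uncertain. Of 25 p53 targets 10 rose and 2 fell (4, 4 and 6 kept), with Perp, Fas, which encodes a death receptor (at least 4.07-fold), Gadd45a (1.31, 1.47 and 1.86) and Btg2 (1.08, 0.89 and 1.30). Trp53 itself had a change of -0.05 (SE 0.10) and was not called, a value chosen after it was seen. Of 14 tested genes of the 2-cell-like state 0 rose and 6 fell (0, 0 and 1 kept), and of 25 germline and meiosis genes 2 rose and 8 fell (4, 2 and 7 kept). Of 21 naive genes 1 rose and 6 fell (0, 0 and 6 kept), while of 16 core pluripotency genes 0 rose and 1 fell (0, 0 and 0 kept). Pou5f1 (0.02 (SE 0.19)), Sox2 (0.18 (SE 0.15)) and Nanog (-0.22 (SE 0.09)) were not called, and their values are given although chosen after they were seen.

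Matrix and adhesion genes moved in both directions. Of 26 extracellular matrix and integrin genes 3 rose and 9 fell (2, 0 and 7 kept, median -0.19). The laminin chains Lama1 (-0.68, -0.84 and -0.63), Lamb1 (-0.62, -0.89 and -1.01) and Lama5 (-0.48, -0.70 and -0.39), parts of the basement membrane, fell in each line, and Timp1, an X-linked metalloproteinase inhibitor gene, rose (0.83, 0.90 and 0.94). Of 16 endoderm and basement membrane genes 2 rose and 3 fell (1, 0 and 2 kept, median -0.52). They share Lama1 and Lamb1 with the matrix list. Cubn, the cubilin gene of visceral endoderm, had levels of -4.32, -4.70 and -4.95 in the control samples of cl4, cl5 and cl6 and of -2.18, -2.49 and -2.06 in the OHT samples, and rose at least 4.61-fold (limma adjusted p = 0.018), and Gata6, an endoderm regulator, rose (0.46, 0.87 and 0.83), from above background in 2 of 3 controls. The Gata6 call was made in 9 of 18 alternatives, with limma adjusted p of up to 0.209 under normexp background and quantile normalisation. Of 22 cadherin, junction and epithelial genes 3 rose and 3 fell (0, 0 and 2 kept). The desmosome genes Dsg2 (0.78, 0.96 and 0.71, with a second probe at 0.35, limma adjusted p = 0.129) and Pkp2 (0.58, 0.71 and 0.78) and the splicing regulator gene Esrp1 (1.29, 1.38 and 1.72) rose, and Ocln, the tight-junction protein occludin, fell (-1.57, -1.73 and -2.18) and was above background on 2 of 4 OHT arrays. Of 11 tested fibroblast markers 1 rose and 2 fell (1, 0 and 1 kept). The intermediate filament gene Vim rose (0.64, 0.95 and 1.11) while Loxl1 (-1.17, -1.34 and -0.91) fell and Pdgfrb fell at least 3.14-fold, beside the higher summed fibroblast signal given above.

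Of 35 ribosomal protein genes 0 were called by limma, 0 had an unadjusted p under 0.05 and 0 were called with a trended, robust prior, and changes ran from -0.15 to 0.16. Of 31 proteasome genes 0 were called (limma, 4 at an unadjusted p under 0.05, 4 with the trended, robust prior), between -0.23 and 0.32. Of 19 endoplasmic reticulum chaperone genes 0 were called (limma, 4 at an unadjusted p under 0.05, 2 with the trended, robust prior), between -0.21 and 0.33. Of 33 core spliceosome genes 1 fell, Prpf4 (-0.40, -0.50 and -0.82), and of 38 respiratory chain genes 1 rose, the cytochrome c gene Cycs (0.33, 0.39 and 0.30, with a second probe at 0.28, limma adjusted p = 0.0834), and neither call was kept without any of the 3 lines. A p above the threshold does not show that these genes kept their level. Of 33 DNA repair genes 0 rose and 5 fell (0, 0 and 3 kept, median -0.14), among them the homologous recombination gene Brca2 (-0.63, -0.54 and -0.73), the checkpoint kinase gene Chek2 (-0.61, -0.71 and -0.58) and the Fanconi anaemia genes Fancd2 (-0.50, -0.73 and -0.62) and Fanci (-0.51, -0.39 and -0.52). Of 36 DNA replication genes 0 rose and 3 fell (0, 0 and 1 kept), including the origin recognition gene Orc1 (-0.60, -0.47 and -0.65), and of 24 mitosis genes 0 rose and 2 fell (0, 0 and 0 kept). Of 25 genes of G1 cyclins and CDK inhibitors 4 rose and 1 fell (1, 0 and 5 kept). Ccnd2, the cyclin D2 gene, above background in 2 of 3 controls, rose (3.94, SE 0.41, with 4.01, 3.90 and 3.91 in cl4, cl5 and cl6), as did Cdkn2b, an inhibitor of CDK4 and CDK6 (0.92, 1.06 and 1.57).

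In the sterol pathway 1 of 25 genes was called (1, 0 and 1 kept): Hmgcs1, which makes the precursor of mevalonate, had levels of 5.82, 5.72 and 5.71 in the control samples of cl4, cl5 and cl6 and of 4.76, 4.16 and 3.76 in the OHT samples, and fell by 1.52 on the log2 scale (SE 0.17, limma adjusted p = 0.009), while the group median was 0.12. Of 23 genes of the ATF4 and CHOP response 1 rose and 2 fell (0, 0 and 2 kept). Fgf21, a stress-induced hormone gene, fell at least 1.97-fold, being above background in all controls and in 0 OHT arrays, and Shmt2 of serine metabolism fell (-0.36, -0.41 and -0.60), whereas Stc2, a stanniocalcin gene, rose (0.92, 1.33 and 0.81). Of 23 glutathione and NRF2 genes 2 rose and 1 fell (1, 1 and 2 kept). The NRF2 target Nqo1 rose (0.84, 0.78 and 0.88), Gclm, on chromosome 3, rose (0.35, 0.68 and 0.90), and Gpx4, which protects membranes from lipid peroxides, fell (-0.70, -0.67 and -0.93). Of 29 lysosome and autophagy genes 2 rose and 4 fell (0, 0 and 2 kept), including the beta-galactosidase gene Glb1 (-1.11, -1.09 and -1.47), Wipi1 (-0.74, -0.78 and -0.81), Map1lc3b (-0.40, -0.42 and -0.44) and Ctsl (-0.72, -0.34 and -0.45), all lower. Of 16 tested interferon response genes 2 rose and 2 fell (2, 2 and 4 kept). The peptide transporter gene Tap1 (2.01, 2.23 and 1.41) and the viral RNA sensor gene Ddx58 (1.45, 1.03 and 1.32) rose, Tap1 being above background in 1 of 3 controls, and Stat2 (-0.94, -0.67 and -0.68) and B2m (-0.75, -0.51 and -0.36) fell. Of 26 Bcl2 family and death pathway genes 1 rose and 2 fell (0, 0 and 1 kept), with Bbc3, the PUMA gene, higher (0.35, 0.50 and 0.70) and Bok (-1.14, -0.77 and -0.68) and Casp9 (-0.56, -0.27 and -0.48) lower. Of 15 reference genes often used for scaling 3 fell (0, 0 and 1 kept), among them B2m and Gusb (-0.93, -0.89 and -0.64). Of 18 Wnt targets 3 rose and 2 fell (0, 1 and 3 kept), Ccnd2 and Cdx2 among the first and Tcf7 (-0.75, -0.75 and -0.54) and Axin2 (-0.43, -0.34 and -0.53) lower. A second Axin2 probe, above background on all arrays, had a change of 0.08 (limma adjusted p = 0.844), and the Axin2 call was made in 8 of 20 alternatives, with adjusted p of up to 0.514 without the block. Of 29 glycolysis and hypoxia genes 1 rose and 3 fell (1, 0 and 2 kept), Ndrg1 higher (1.15, 0.86 and 1.82) and Vegfa (-0.71, -0.50 and -0.38), Car9 (-0.75, -1.86 and -1.99) and Hk1 (-0.46, -0.47 and -0.77) lower. Car9 was above background on 2 of 4 OHT arrays, and second probes of Vegfa (-0.34, limma adjusted p = 0.382) and Hk1 (-0.50, limma adjusted p = 0.14) were not called. Of 15 heat shock genes the cochaperone gene Bag3 rose (0.46, 0.56 and 0.95, 0, 0 and 1 kept), and of 26 ribosome biogenesis genes Wdr12 rose (0.48, 0.31 and 0.53, 0, 0 and 0 kept). Of 16 tested genes of X inactivation and sex linkage 2 rose, among them Rlim (0.96, 0.78 and 1.22), and 1 was called lower, the Y-linked Zfy1 (2, 0 and 2 kept). Zfy1 was above background in 2 of 3 controls and on 1 of 4 OHT arrays, its levels in cl6 were -5.41 and -6.97, and the call was lost without the line as a block (limma adjusted p = 0.28) and without cl5. Of 8 tested blood and endothelial markers Pecam1 fell (-0.79, -0.88 and -0.83, 0, 0 and 0 kept).

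**Figure D5:**
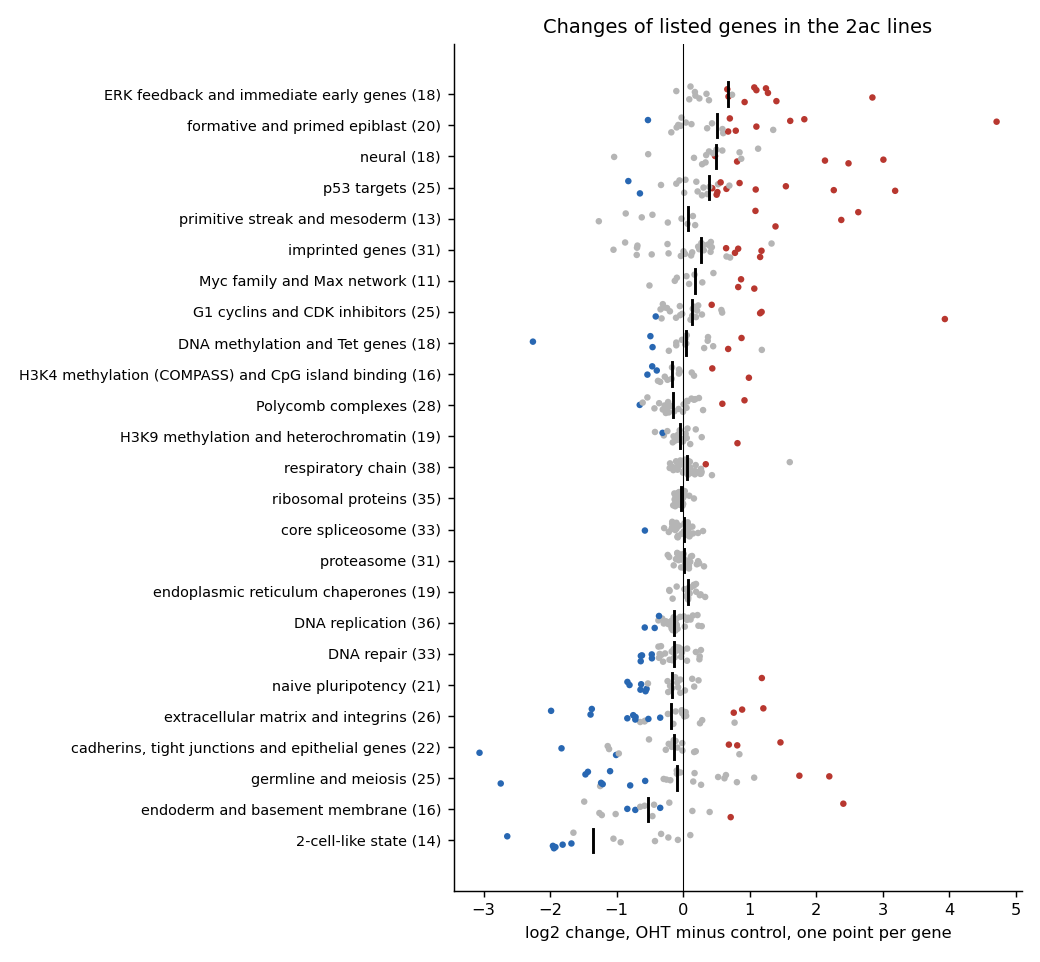
Log2 change after OHT (mean of the 3 lines of 2ac, horizontal axis) of the tested genes of 25 lists, one point per gene, with the number tested in brackets and the list median as a black bar. Red and blue points were called higher and lower and grey points were not called. By median, ERK feedback genes lie furthest right of these lists (0.67) and 2-cell-like genes furthest left (-1.35), while the 35 ribosomal protein genes stay between -0.15 and 0.16.

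The lines with Jmjd2b deleted as well showed a related response. These comparisons have separate control samples, but both effects came from 1 limma fit with 1 estimate of spread per feature. The calls in 2ac and 2abc are therefore not independent, and a feature with a small spread is more easily called in both. Of the 2813 features called in 2ac 94.3% had the same sign in 2abc, and 1729 were also called there, which is 61.5% of the calls in 2ac and 42.8% of the 4044 in 2abc. Those 4044 calls were made among all 22965 tested features. The share of all tested features with the same sign in both genotypes was not worked out. Features called higher in 2ac had a median change of 0.75 in 2ac and 0.62 in 2abc, and those called lower of -0.82 and -0.64, but they had been chosen for their size in 2ac. The difference between both effects was tested in the same limma fit, and 0 features were called (0%), with 2526 at an unadjusted p under 0.05 and a lowest adjusted p of 0.126. The following values were chosen after they were seen. Vrtn changed by 2.69 in 2ac and 0.44 in 2abc (difference -2.25, limma adjusted p = 0.126). Dnmt3b changed by 0.68 and -0.47, Ddx58 by 1.27 and 0.18, Lama1 by -0.72 and -0.06 and Fgf21 by -2.53 and -0.16, each with a limma adjusted p of 0.303 for the difference. Fgf21 was above background on no OHT array of 2ac, so the size of its fall there is uncertain beyond the bound given above. Kdm4b, the gene deleted in 2abc only, differed by -2.34 and had the same limma adjusted p of 0.303.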

How the data were processed

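Total RNA of each culture was labelled with Cy3 and hybridised to 1-colour Agilent arrays, per the labels' protocols. The deposited spot intensity values came from Agilent Feature Extraction, version 11.0.1.1 in the file headers, with background subtracted. The authors' deposited table of log2 values, labelled loess, served as an alternative, and limma is named in the submitters' processing notes. Control spots and flagged outliers (184 to 228 of 59305 per 2ac array) were left out, and spots of a probe were averaged (55681 probes). From log2 of the intensity each array's 75th percentile was subtracted. A probe was kept if at least 1 of the 4 groups had it well above background on all arrays (30670 probes), and the brightest stood for its gene, giving 22965 features, 14659 with a symbol from RefSeq (GRCm38.p6) through the probe's accession (27656 of 29123 matched). The arrays are annotated on mm9, so probe positions are not printed. Effects were fitted with limma 3.58.1 in R 4.3.3 on all 12 samples, with the line as a block (4 residual degrees of freedom). Control and OHT cultures of a line come from the same cells, and their deviations from the group means correlated at 0.16, 0.46 and 0.50 in cl4, cl5 and cl6. The OHT sample of cl4 correlated more with the control of cl5 (0.29) than with its own. The remaining pairs of different lines lay between -0.48 and -0.003. A bound ("at least") sets the bright group against the lowest signal well above background. The fit was run on simulated data with known changes, as a check of the code only. Those data held independent errors without slide effects or a background floor, so they do not bear on the calls.

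The gene lists, members and rules for naming genes were chosen with earlier results of these data known. Named were the Jmjd2 genes, up to 4 called members of each of 48 lists by smallest p (where fewer than 2 were called, the extremes), the 4 called higher and lower with the smallest p in each level class, 5 neighbours on each side of Kdm4a and Kdm4c, the 4 genes furthest apart in each line, and 4 called genes of chromosomes 3, 4 and X. A few genes that this rule names are not reported here. The 20 alternatives covered scaling, background, filter, probe choice, block, samples and prior. Normexp was planned on the mean spot signal but used the median signal, the column read here. 2 choices on promoters were made after values were seen. The most upstream RefSeq start replaced the start with most CG, because a first window ran into coding sequence, and chromosome 18, for which the promoter table matched 0 genes, was left out.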

Additional observations from a re-analysis of the deposited data

How the results depend on the processing

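The direction of all 2813 calls held in every alternative that tested them, except 1 feature under the mean over all probes of a gene. Many alternatives could not test direction. All 2813 had one sign in every 2ac line, so leaving out a 2ac line could not turn it. Fits that changed only the block, the prior or the 2abc lines rest on the same 2ac changes. The number of calls did not hold. Leaving out one line at a time, of either genotype, gave 167 to 3433 features called in 2ac, 103 to 1599 of them higher and 64 to 1834 lower. The lowest values were those without cl5, and fits with fewer samples leave fewer residual degrees of freedom. Fitting the 2ac samples only gave 1596 (677 higher, 919 lower), and no filter on dim probes gave 909 of 36983 (441 higher, 468 lower), a larger family of tests. Scaling arrays by their median gave 2033 called, 767 of them higher. The remaining alternatives stayed within 1.5 times, from 2690 without genes of chromosomes 3 and X to 4017 with a trended, robust prior. Without the pairing of cultures by line as a block, 3000 features were called, 2326 of them among the 2813. The difference between both genotypes had 0 calls in every alternative that could give it. Of the 200 called genes whose values were followed, 45 were called in every alternative that tested them, and 0 changed sign. Many of the 200 had been chosen for a small p in the main fit. For changes near the background of the arrays, signal limits the precision.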
